A study of Capra hircus with 2 samples.

Results

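The miR-200 family of the dairy goat mammary gland was described in 2 small RNA libraries, from early involution and early lactation. Its 5 genes, out of 264 goat miRNA genes listed by RefSeq for ARS1.2, encode miR-200a, miR-200b, miR-200c, miR-141 and miR-429. A tag, the sequence of a read after adaptor removal, was counted for a member when it had at least 18 nt, started at the first base of the mature form or lacked its first 1 or 2 bases, carried no mismatch to it and ran past its end by no more than 3 bases. By this rule 280 of 259250 distinct tags belonged to the family in involution and 260 of 305711 in lactation. The involution library represents Capra hircus on day 5 after forced weaning at late lactation, which was day 218 after parturition. The lactation library represents day 10 after parturition. For each stage, RNA from mammary gland tissue of 5 goats was mixed in equal parts. There was 1 pooled library per stage, so the spread between animals was not measured, no test between the stages was made, and stage cannot be told apart from the time since parturition. Every interval given is a 95% interval for counting error alone.

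The miR-200 family is known as a keeper of epithelial identity. Its members repress ZEB1 and ZEB2, transcription factors that shut off E-cadherin, and those factors in turn repress the genes of the family. In the mammary gland the family marks luminal epithelial cells, which make milk and are lost by cell death when the gland involutes. In whole tissue, fewer cells of a type and less RNA per cell cannot be told apart.

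The 5 dominant arms are shown because they differ at few bases and because the seed, bases 2 to 8 from the 5′ end (in capitals), divides them in a different way from their genes. They are given 5′ to 3′, with T for U, as the commonest goat tags of the conserved length.
miR-200c-3p: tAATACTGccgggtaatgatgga
miR-200b-3p: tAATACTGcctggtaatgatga
miR-429-3p: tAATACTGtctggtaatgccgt
miR-141-3p: tAACACTGtctggtaaagatgg
miR-200a-3p: tAACACTGtctggtaacgatgt

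The seed AATACTG is shared by miR-200c, miR-200b and miR-429, and the seed AACACTG by miR-141 and miR-200a. By position the family divides otherwise. MIR141 and MIR200C are neighbours in the goat gene table, next to PTPN6, and MIR429, MIR200A and MIR200B are neighbours between TTLL10 and C16H1orf159. Each cluster therefore holds members of both seeds.

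The summed dominant arms of the family stood at nearly the same level in both libraries. They made 149653 of 7385833 clean tags in involution and 367194 of 18031615 in lactation. Per 1000000 clean tags of the library (TPM) this was 20262 TPM in involution (interval 20160 to 20365) and 20364 TPM in lactation (interval 20298 to 20430), a ratio of involution to lactation of 0.995 (interval 0.989 to 1.001). The family thus took 2.03% of all involution tags and 2.04% of all lactation tags. The ratio depended on the scaling. Tags were sorted into 594 groups with a shared start, of which 584 had a tag in both libraries. Scaling by the median of ratios over these 584 shifted every log2 ratio by -0.58, and TMM scaling shifted it by -0.61. The log2 ratio of the family was thus -0.58 and -0.62 under these scalings, against -0.01 in TPM. Relative to the median tag group the family was therefore lower in involution. It was not lower relative to the median of the 37 tag groups with at least 1000 TPM in both libraries, which was -0.06 in TPM.

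Behind that sum the members differed in direction. The most abundant of them, miR-200c, had 83127 tags in involution and 274289 in lactation, equal to 11255 TPM in involution and 15212 TPM in lactation. It was 1.35-fold lower in involution (ratio 0.740, interval 0.734 to 0.746).

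Its cluster neighbour miR-141 ran the other way. It had 34294 tags or 4643 TPM in involution, against 31672 tags or 1756 TPM in lactation, although the lactation library was 2.44 times deeper. The ratio was 2.64 (interval 2.60 to 2.68). In the order of all 594 tag groups by level, miR-141 stood at place 17 in involution and at place 32 in lactation, while miR-200c stood at place 11 in both.

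The members of the other cluster all differed by less than 2-fold in TPM. The level of miR-200b was 3234 TPM in involution and 2562 TPM in lactation (ratio 1.26, interval 1.24 to 1.28). For miR-200a it was 1021 TPM in involution and 689 TPM in lactation (ratio 1.48, interval 1.44 to 1.53). Under the median-of-ratios and TMM scalings both changed sign, with log2 ratios of -0.24 and -0.28 for miR-200b and of -0.01 and -0.04 for miR-200a. The last 2 are ratios of 0.994 and 0.970, so miR-200a was nearly level under these scalings. The rarest member, miR-429, had 811 tags in involution and 2613 in lactation, equal to 109.8 TPM in involution and 144.9 TPM in lactation (ratio 0.758, interval 0.699 to 0.820).

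**Figure D1:**
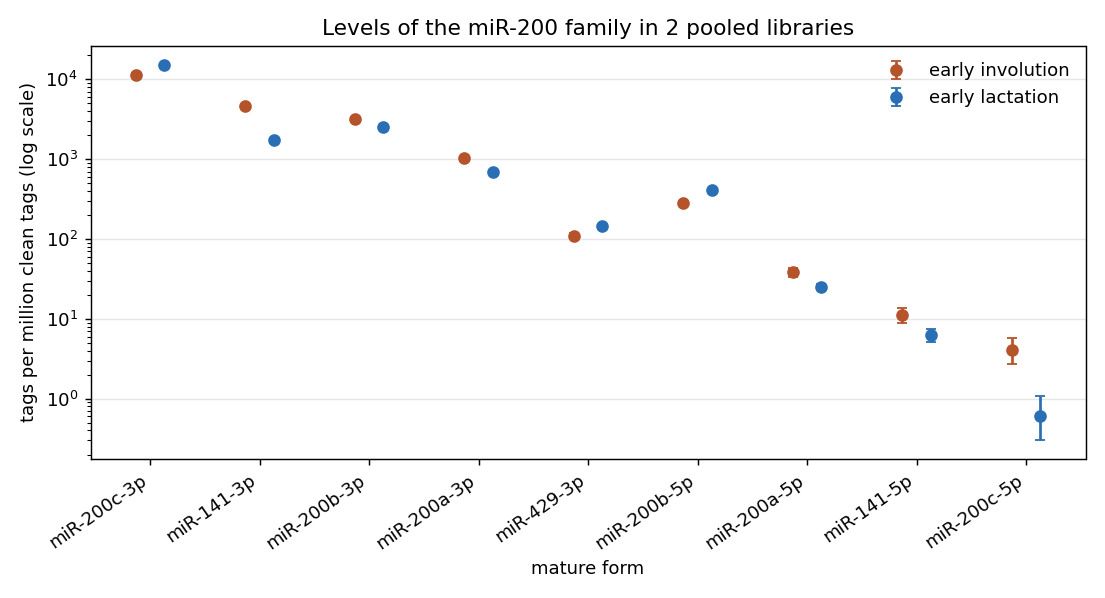
Levels of the mature forms of the miR-200 family in tags per 1000000 clean tags (TPM, log axis), dominant arms to the left and other arms to the right, in 1 early involution and 1 early lactation library. Bars are 95% counting intervals, hidden by the point where narrow; miR-141-3p lies at 4643 TPM in involution and 1756 TPM in lactation, while miR-200c-3p lies at 11255 TPM in involution and 15212 TPM in lactation.

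A call of higher or lower needed a ratio of 2 or more, or of 0.5 or less, with an interval that left out 1, and a level of 10 TPM in either library. By this fold, 1 of the 5 members, miR-141, was called higher in involution, and 0 were called lower. Over all 594 tag groups 37.7% were called higher and 4.88% lower, so that 1 of 5 is not above the background. Calls over the groups moved with scaling: 24.9% were higher and 15.7% lower by the median of ratios, and 24.6% higher and 17.0% lower by TMM. Under the same scalings miR-141 was no longer called, at ratios of 1.77 and 1.73. With them miR-200c passed the fold for a lower call, at 2.01-fold and 2.07-fold lower, and with TMM so did miR-429, at 2.02-fold lower. The median log2 ratio was 0.34 over the 5 members and 0.58 over the 584 tag groups with a tag in both libraries, with quartiles of -0.08 and 1.78. Among the 37 tag groups with at least 1000 TPM in both libraries the median was -0.06.

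**Figure D2:**
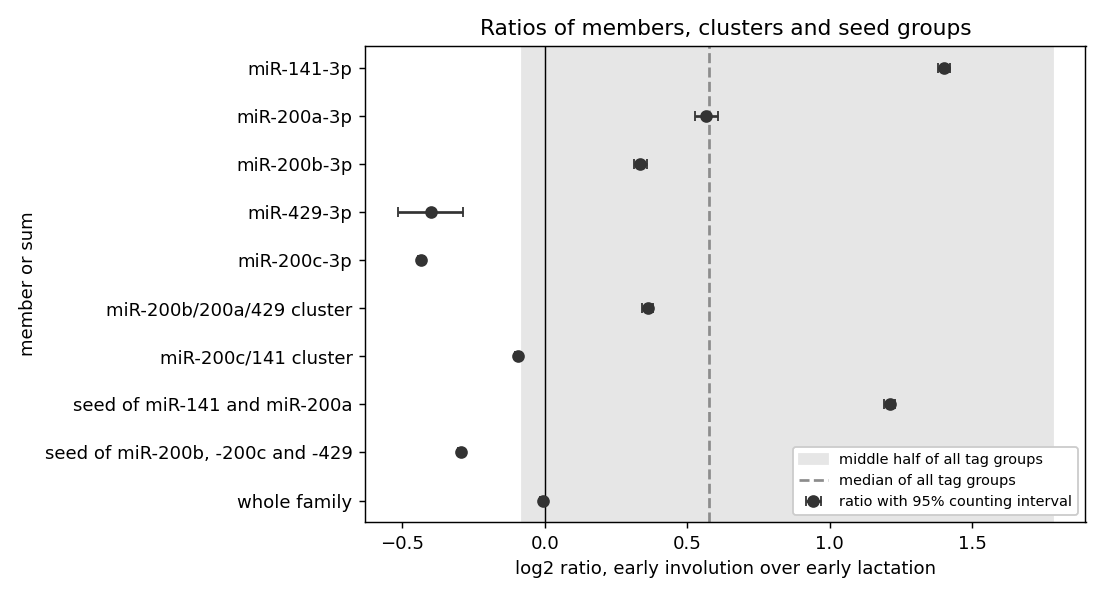
Log2 ratios of involution over lactation for the 5 members, both clusters, both seed groups and the whole family; points are ratios of TPM with 95% counting intervals, and the grey band and dashed line are the quartiles and median of all tag groups. miR-141-3p stands at 1.40 and the whole family at -0.01, below the median of 0.58.

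Members can also be compared with each other inside each library, where the scaling drops out. The share of miR-200c in the family was 55.5% in involution (interval 55.3 to 55.8%) and 74.7% in lactation (interval 74.6 to 74.8%). For miR-141 it was 22.9% in involution and 8.63% in lactation. Shares of miR-200b were 15.96% in involution and 12.6% in lactation, those of miR-200a 5.04% in involution and 3.38% in lactation, and those of miR-429 0.542% in involution and 0.712% in lactation. The order of the members by level was the same in both libraries except that miR-141 stood above miR-200b in involution and below it in lactation.

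**Figure D3:**
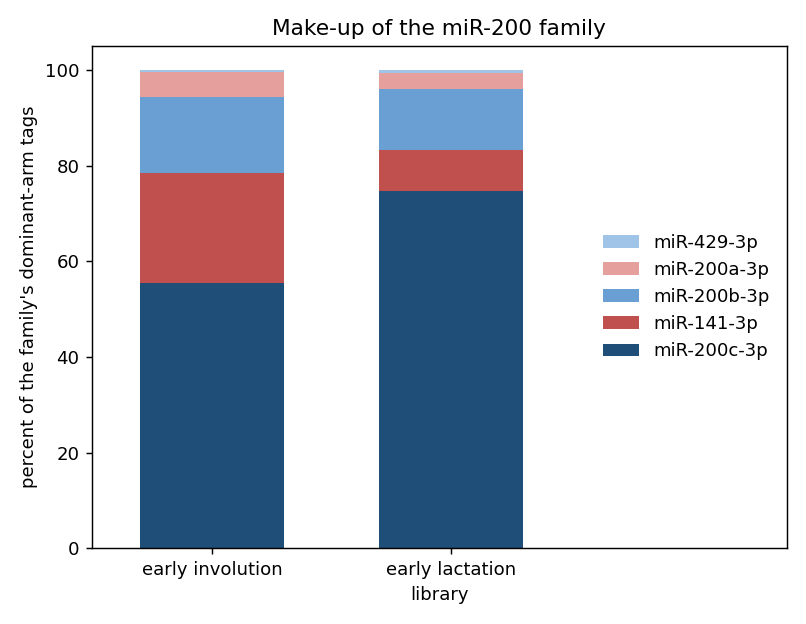
Share of each member in the dominant-arm tags of the family, in percent, for the early involution and early lactation libraries; red shades mark the seed AACACTG and blue shades the seed AATACTG. The red part is 27.95% in involution and 12.0% in lactation.

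Between the clusters, miR-200c and miR-141 together made 15898 TPM in involution and 16968 TPM in lactation, and miR-200b, miR-200a and miR-429 together 4364 TPM in involution and 3396 TPM in lactation. The first cluster was 3.64 times the second in involution and 5.00 times in lactation, a log2 difference of -0.46 (interval -0.48 to -0.43).

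Between the seeds the difference was larger and of the other kind. Members were grouped by the seed of their main form, and all their counted tags were summed, also those that lack the first 1 or 2 bases. Members with the seed AACACTG stood at 5664 TPM in involution and 2445 TPM in lactation (ratio 2.32, interval 2.29 to 2.35). Those with AATACTG stood at 14598 TPM in involution and 17919 TPM in lactation (ratio 0.815, interval 0.809 to 0.820). The quotient of AACACTG over AATACTG was 0.388 in involution and 0.136 in lactation, 2.84-fold higher in involution (interval 2.80 to 2.89), which is a log2 difference of 1.51.

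The larger part of this difference lay in 1 pair of neighbouring genes. The quotient of miR-141 over miR-200c was 0.413 in involution and 0.115 in lactation, 3.57-fold higher in involution (interval 3.51 to 3.63). In the other cluster the quotient of miR-200a over miR-200b was 0.316 in involution and 0.269 in lactation, 1.17-fold higher (interval 1.14 to 1.21). Members of 1 cluster were thus not in a fixed proportion within counting error, and neither were members of 1 seed: miR-141 over miR-200a was 4.55 in involution and 2.55 in lactation, and miR-200c over miR-200b was 3.48 in involution and 5.94 in lactation. The quotient of miR-429 over its cluster neighbour miR-200b was 0.0340 in involution and 0.0566 in lactation. In contrast miR-200c over miR-429, from different clusters with the same seed, was 102.5 in involution and 105.0 in lactation, with an interval of their ratio from 0.902 to 1.06 that holds 1.

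The opposite arms were also read, and are shown for comparison with the dominant ones (bases 2 to 8 in capitals, as the commonest tags of the conserved length). Their seeds are not those of the dominant arms, and that of miR-200b-5p equals that of miR-200a-5p.
miR-200b-5p: cATCTTACtgggcagcattgga
miR-200a-5p: cATCTTACcggacagtgctgga
miR-141-5p: cATCTTCCagcacagtgttgga
miR-200c-5p: cGTCTTACccagcagtgtttgg

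The most abundant of these, miR-200b-5p, had 2094 tags or 283.5 TPM in involution and 7526 tags or 417.4 TPM in lactation (ratio 0.679, interval 0.647 to 0.713), whereas its partner miR-200b-3p was higher in involution on the TPM scale (it was lower under the median-of-ratios and TMM scalings). The 5p arm made 8.06% of both arms of miR-200b in involution (interval 7.73 to 8.40%) and 14.01% in lactation (interval 13.7 to 14.3%). The level of this other arm exceeded that of the dominant arm of miR-429 in both libraries.

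For miR-200a the arms kept their proportion. The 5p arm was at 38.2 TPM in involution and 25.2 TPM in lactation, 3.61% of both arms in involution (interval 3.20 to 4.04%) and 3.53% in lactation (interval 3.22 to 3.86%). For miR-141 the 5p arm was at 11.1 TPM in involution and 6.27 TPM in lactation, 0.239% of both arms in involution (interval 0.190 to 0.296%) and 0.356% in lactation (interval 0.293 to 0.427%). For miR-200c it was the rarest, with 30 tags or 4.06 TPM in involution and 11 tags or 0.610 TPM in lactation. It made 0.0361% of both arms in involution (interval 0.0243 to 0.0515%) and 0.0040% in lactation (interval 0.0020 to 0.0072%). The quotient of 5p over 3p was thus 8.999-fold higher in involution for miR-200c (interval 4.51 to 17.96), while for miR-200b and miR-141 it was lower in involution, at 0.538 and 0.670 of the value in lactation. No tag was found for miR-429-5p with the words searched. As no goat sequence of this arm was at hand, its level is not known, and it was not analysed further.

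The ends of the members were compared next. Tags that end before the conserved 3′ end, at it or after it can be counted within each library, and the longer forms of the members with the seed AACACTG are shown beside the short ones because their proportions differed most between the libraries (extra bases in capitals).
miR-141-3p, 21 nt: taacactgtctggtaaagatg
miR-141-3p, 23 nt: taacactgtctggtaaagatggC
miR-200a-3p, 21 nt: taacactgtctggtaacgatg
miR-200a-3p, 23 nt: taacactgtctggtaacgatgtT

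For miR-141, 12.6% of tags ended early in involution (interval 12.2 to 12.9%) and 37.6% in lactation (interval 37.1 to 38.1%), and 70.4% ran past the conserved end in involution against 52.0% in lactation. The 21-nt form had 3510 tags in involution and 10662 in lactation, a ratio of TPM of 0.804 (interval 0.773 to 0.835). The 22-nt form had 5794 tags in involution and 3296 in lactation (ratio 4.29, interval 4.11 to 4.48), and the 23-nt form ending in C had 18392 in involution and 13315 in lactation (ratio 3.37, interval 3.30 to 3.45). The higher level of miR-141 in involution was therefore carried by the forms that reach the conserved end or pass it, at 4059 TPM in involution and 1096 TPM in lactation (ratio 3.70, interval 3.64 to 3.77). The forms that end early were at 584 TPM in involution and 661 TPM in lactation (ratio 0.884, interval 0.854 to 0.916).

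The other member with this seed, miR-200a, had the same kind of difference. Of its tags, 13.7% ended early in involution (interval 12.96 to 14.5%) and 32.8% in lactation (interval 32.0 to 33.6%), and 59.8% ran past the end in involution against 40.9% in lactation. Its 21-nt form had 859 tags in involution and 3872 in lactation (ratio 0.542, interval 0.502 to 0.583), and its 23-nt form ending in T had 3674 in involution and 4420 in lactation (ratio 2.03, interval 1.94 to 2.12). Forms that end early were at 140.1 TPM in involution and 225.8 TPM in lactation (ratio 0.621), and those at or past the end at 880 TPM in involution and 463 TPM in lactation (ratio 1.90).

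The members with the seed AATACTG differed less in their ends. For miR-200c, whose main form has 23 nt, 28.6% of tags ended early in involution and 25.5% in lactation, and 2.08% in involution and 0.695% in lactation were longer. Its forms with 1 extra A had 1161 tags in involution and 1204 in lactation (ratio 2.35, interval 2.17 to 2.55), against a ratio of 0.694 for the main form. For miR-200b, 15.7% ended early in involution and 17.9% in lactation, and 36.8% in involution and 35.4% in lactation were longer. For miR-429, 29.1% ended early in involution (interval 26.0 to 32.4%) and 36.1% in lactation (interval 34.2 to 38.0%), and 31.6% in involution and 23.6% in lactation were longer. Within its longer tags the form ending in AG had 73 tags in involution and 326 in lactation (ratio 0.547, interval 0.418 to 0.707), while the form ending in AA had 83 in involution and 54 in lactation (ratio 3.75, interval 2.63 to 5.39).

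**Figure D4:**
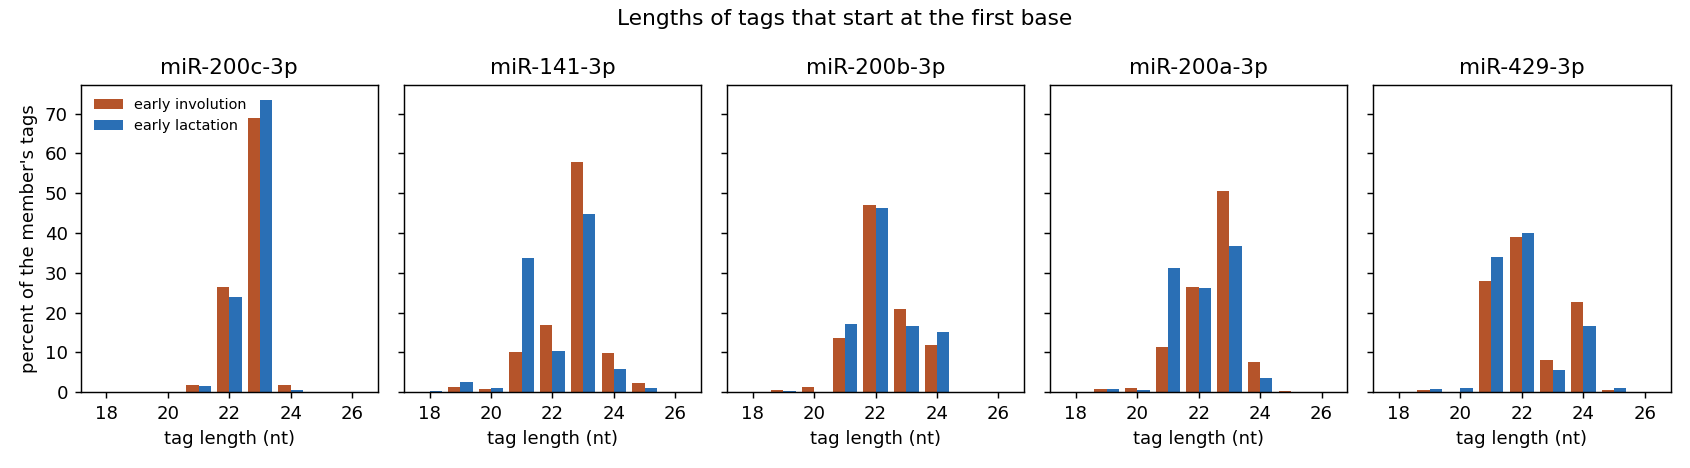
Lengths in nt of the tags that start at the first base of each dominant arm, in percent of the tags of the member, for the early involution and early lactation libraries (no replicates, so no error bars). The 21-nt forms of miR-141-3p and miR-200a-3p make a smaller share in involution than in lactation, 10.2% against 33.7% and 11.4% against 31.2% of all tags of the member.

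Mean tag length summarises this. It was 0.53 nt longer in involution for miR-141 (22.68 nt in involution and 22.15 nt in lactation), 0.41 nt longer for miR-200a and 0.23 nt longer for miR-429. It was 0.01 nt shorter for miR-200b and 0.02 nt shorter for miR-200c. Outside the 5 dominant arms, 119 tag groups with at least 1000 tags in both libraries, miR-200b-5p among them, had a median difference of -0.02 nt. Their 5th and 95th percentiles were -0.40 and 0.49 nt. Of these, 6 gained more than miR-141 and 9 more than miR-200a. Such gains were therefore uncommon in these libraries but not particular to the family.

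The first extra base differed by member more than by stage. It was C in 93.6% of the longer miR-141 tags in involution and 94.5% in lactation, and C in 90.4% of those of miR-200b in involution and 96.6% in lactation. It was T in 96.3% for miR-200a in involution and 96.8% in lactation. It was A for miR-200c, in 75.8% in involution and 72.7% in lactation, and for miR-429, in 88.6% in involution and 84.1% in lactation. Bases that continue the precursor and bases added after processing cannot be told apart here, as no precursor sequence was used. With 1 library per stage, a difference in end forms between the stages cannot be told apart from one between library preparations. The counting rule left out tags with a base that does not match the member between its first 18 bases and its conserved 3′ end. Those with no more than 3 bases from that base on were counted apart. They may have lost bases and gained others, or carry a wrong base. They made 8.95% of the tags with the first 18 bases of miR-429 in involution and 15.6% in lactation, and there the base that does not match was mostly A. For the other members they made between 0.471% and 2.89%.

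The 5′ end, which sets the seed, was nearly fixed for 4 members: tags lacking 1 or 2 bases made between 0.281% and 1.51% of them in either library. For miR-200b such tags made 4.28% in involution (interval 4.03 to 4.54%) and 4.13% in lactation (interval 3.95 to 4.32%). Those lacking the first base stood at 115.8 TPM in involution and 94.6 TPM in lactation, against 109.8 TPM in involution and 144.9 TPM in lactation for all tags of miR-429. Their seed is shifted by 1 base, and the commonest of them is shown with that seed in capitals.
miR-200b-3p, shifted start: aATACTGCctggtaatgatgact

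Tags that start 1 or 2 bases upstream were rare in both libraries and more frequent in involution. They made between 0.856% and 1.42% of the tags of a member in involution and between 0.0325% and 0.321% in lactation. Of those that start 1 base upstream of miR-141, 59.8% of 445 tags in involution had A as the added base and 38.4% had C, whereas 99.0% of 102 tags in lactation had C. The counting rule leaves such tags out, and with them counted the log2 ratio of the family was 0.0058. Tags of 36 nt or more that hold a member numbered 21 in involution and 174 in lactation, equal to 2.84 TPM in involution and 9.65 TPM in lactation. Of them, 10 in involution and 134 in lactation also held the start of another tag group. All tags of 36 nt or more numbered 1008 in involution and 8704 in lactation, so the difference was not particular to the family.

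Because members differ at few bases, tags of an abundant one with a wrong base could be counted for another. For tags that end early, T11G (position counted from 1 at the 5′ end of miR-200b, its base first) would turn miR-200b into miR-200c. From the frequency of each such change among tags long enough to tell, the expected number of misplaced tags was at most 0.0724% of any member, for C17A from miR-200a to miR-141 in lactation. For that change the expected number was 4.47 tags in involution and 22.9 tags in lactation, beside 34294 tags of miR-141 in involution and 31672 in lactation.

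Other epithelial miRNAs were set beside the family. Of 6, miR-375, known from endocrine and secretory epithelium, and miR-205, known from basal and myoepithelial cells, were called higher in involution in TPM, and 0 were called lower. A share of 2 in 6 is not above the 37.7% of all tag groups called higher. The level of miR-375 was 5039 TPM in involution and 208.4 TPM in lactation (ratio 24.2, interval 23.4 to 25.01). For miR-205 it was 653 TPM in involution and 116.7 TPM in lactation (ratio 5.59, interval 5.31 to 5.89). The cluster of miR-182, miR-183 and miR-96, first known from sensory epithelium, was not called: miR-182 had 382.6 TPM in involution and 584.6 TPM in lactation, and miR-183 had 107.2 TPM in involution and 197.1 TPM in lactation, while miR-96 stayed under 5 TPM. The level of miR-203, a miRNA of keratinocytes, was 20.6 TPM in involution and 35.3 TPM in lactation. By the median of ratios and by TMM, miR-375 and miR-205 were still called higher, and miR-182, miR-183 and miR-203 were called lower, between 2.28-fold and 2.81-fold. Over all tag groups, 24.9% were called higher and 15.7% lower by the median of ratios, and 24.6% higher and 17.0% lower by TMM. In TPM the ratio of the summed family lay below those of miR-375 and miR-205 and above those of miR-182, miR-183 and miR-203. The ratio of miR-96, with few tags, was 1.18 (interval 0.751 to 1.83). These scalings shift all log2 ratios alike, so they cannot change this order.

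Markers of other cells that whole gland holds were counted as well. Their counts of calls in TPM stand beside the same 37.7% higher and 4.88% lower over all tag groups. Of 6 leukocyte miRNAs 5 were called higher in involution and miR-155 lower (ratio 0.488, interval 0.470 to 0.505), with summed levels of 1506 TPM in involution and 1218 TPM in lactation. Of these sums miR-155 alone made 481 TPM in involution and 987 TPM in lactation. The call of miR-155 turns on the counting rule, since its tag group, which takes more of its end forms, had a ratio of 0.563 and was not called. Of 3 erythroid miRNAs 2 were higher, with sums of 3051 TPM in involution and 910 TPM in lactation. Of 5 stromal and smooth muscle miRNAs 2 were higher, and their sums of 323568 TPM in involution and 314724 TPM in lactation were nearly all miR-143, which alone made 31.9% of involution tags and 31.0% of lactation tags. By the median of ratios and by TMM 1 stromal miRNA, miR-10b, was also called lower, and the calls of the leukocyte, endothelial and erythroid lists were as many as in TPM. Under these scalings 15.7% and 17.0% of all tag groups were called lower, and 24.9% and 24.6% higher. Of both endothelial arms of miR-126, 1 was higher, with sums of 7085 TPM in involution and 7584 TPM in lactation. Of the miRNAs from outside the gland, miR-124 of neurons was at 0 in both libraries, miR-208 of heart had 2 tags in involution and 0 in lactation, and miR-122 of liver had 41 tags in involution and 20 in lactation. A count of 0 allows up to 0.406 TPM in involution and 0.166 TPM in lactation of the form searched. The part of these cells in the levels of the miR-200 family was not tested.

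The miRNAs with a log2 ratio nearest to the -0.01 of the summed family, among those with at least 1000 TPM in both libraries, were miR-151-3p at -0.05, miR-146b at -0.05 and miR-143 at 0.04, a likeness that rests on 2 libraries.

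Under the other scalings and counting rules the first place of miR-141 held, while the order of the others changed with 3 rules and the signs of miR-200a and miR-200b with 2 scalings. With these 2 scalings miR-200a was nearly level. The ratio of miR-141 was the highest of the 5 in each of 12 settings, but not all of these could change the order. The scalings shift all log2 ratios by the same amount, and no tag counted by the main rule exceeds 30 nt. The order could thus change only under the other counting rules. The log2 value of miR-141 ran from 0.70 without longer tags to 2.10 with tags identical to the conserved form. Its call depended on both scaling and counting rule. By the median of ratios and by TMM it was not called, at ratios of 1.77 and 1.73. With longer tags left out and those that end early kept, the ratio of miR-141 was 1.63, and 0 members were called. With identical tags alone, which leaves out both, the ratio was 4.29 and miR-141 was called higher.

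**Figure D5:**
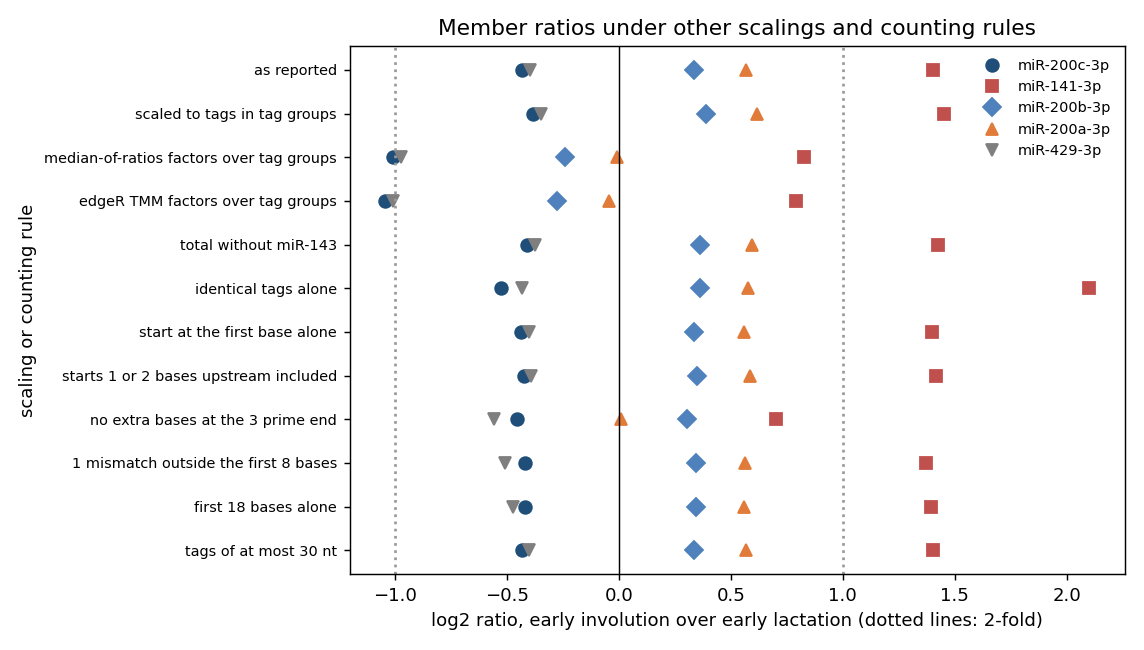
Log2 ratios of involution over lactation of the 5 dominant arms as reported and under 11 other scalings and counting rules, 1 row each; dotted lines mark a 2-fold difference. miR-141-3p is the highest in every row, and miR-200a-3p and miR-200b-3p fall below 0 under the median-of-ratios and TMM factors, miR-200a-3p only slightly. A scaling moves all members of its row alike, so it cannot change their order.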

How the data were processed

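The authors deposited raw counts: each distinct clean tag of a library with its length and its number of reads. Per the labels' protocols, RNA of 18 to 30 nt was selected, ligated to adaptors, amplified and sequenced on Solexa; tags in the files reached 44 nt. Per the description the authors deposited, 3′ adaptors were trimmed, and polyA tags, reads of low quality, adaptor contaminants and short tags were removed. Versions of tools and the genome build: not given in the sources used here. Reads carried no molecular identifiers. Levels are counts per 1000000 clean tags of the file (TPM).

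Mature forms were found with short search words written from general knowledge, and their sequences were read from the files. Members and lists were chosen with earlier results of these data known. Tag groups (594) stand in for the table of miRNAs that the design had assumed: 18-base starts with at least 10 TPM in a library, without those 1 mismatch from a start 50 times as abundant, those shifted by 1 or 2 bases, and those whose commonest tag had not 20 to 24 nt. They are unnamed and may hold pieces of other RNAs.

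Intervals are exact Poisson for levels, Clopper-Pearson for shares and ratios, and Wald on log odds for quotients. A count of 0 allows 3 counts. Named miRNAs are the members, 6 epithelial ones, marker lists, miR-143 and the 3 nearest in ratio; the names miR-151-3p and miR-146b were added after values were seen. Procedures were tested on simulated data. Python 3.11.15, numpy 2.4.6, scipy 1.17.1, matplotlib 3.10.9, and R 4.3.3 with edgeR 4.0.16 for TMM factors were used.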

Additional observations from a re-analysis of the deposited data

How the results depend on the processing

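The log2 ratio of the summed family, -0.01, was 0.044 when scaled to tags in tag groups, 0.017 with miR-143 out of the total, -0.58 by the median of ratios, -0.62 by TMM, -0.30 with identical tags alone, -0.28 without extra bases at the 3′ end and 0.0058 with upstream starts. Members called, 1, became 2 under TMM and 0 without extra bases; by the median of ratios the count stayed 1 but the call was miR-200c lower. The log2 difference between clusters, -0.46, was -0.78 with identical tags and -0.58 without extra bases. That between seeds, 1.51, was 1.95 with identical tags, 0.87 without extra bases and 1.47 with 1 mismatch allowed. The 5p share of miR-200b, 5.95 points lower in involution (a difference of -5.95), differed by -6.63 points with identical tags and -8.08 without extra bases. The share of miR-141 tags that end early, a difference of -25.0 points, was recomputed in 2 alternatives alone. With upstream starts it was -25.1 points, a move of less than its counting error. With tags of at most 30 nt it could not change, as no counted tag of miR-141 is longer. The other 4 settings for the family, 11 for the members called and 5 and 4 for the balances of clusters and seeds gave about the reported value. Some of these could not do otherwise. No counted tag exceeds 30 nt, so the limit of 30 nt could not change the balances and altered only the library totals. Each member exceeds 100 TPM in at least 1 library, so minimums of 1 TPM and 100 TPM could not change the calls. The cause was not tested beyond how each setting is built. miR-141 was called higher in 8 of 11 alternatives, and not by the median of ratios, by TMM or without extra bases. Not all of the 8 could change the call. The limit of 30 nt kept every counted tag of miR-141. Scaling to tags in tag groups and leaving out miR-143 shifted log2 ratios by only 0.051 and 0.025.

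The alternatives written at first for a table of miRNAs and their precursors (3 scalings, upstream starts and extra bases within the precursor) were not run. Those on tag groups, upstream starts of any base, no extra bases, and those on the marker lists were chosen after seeing the data. No paired analysis was possible because each stage has 1 library, and leaving out a replicate was not possible either. Depth limits miR-200c-5p and miR-96, with few tags.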
